A study of Mus musculus with 2 samples.

Results

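The 9 genes Mbp, Mog, Mag, Mobp, Cnp, Mal, Opalin, Ermn and Cldn11, which mature oligodendrocytes use to build and maintain myelin, were compared between the prefrontal cortex (PFC) of mice exposed to chronic mild stress (CMS) and that of control mice. They were taken by name from a list of myelin and oligodendrocyte genes, and all of their probes on the arrays were used. The 9 genes were measured by 14 probes, among 37074 gene names and 55681 probes in all. None of the 9 changed more than 2-fold. In the CMS group 6 of them had a lower signal and 3 a higher one, with log2 ratios between -0.34 for Mobp and 0.11 for Mbp.

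Male C57Bl/6 N sea mice, which were 9 to 10 weeks old at the start, made up both groups. The C group received ordinary care in cages of 3 to 5 mice. The CMS group was housed singly and exposed for 4 weeks to a random schedule of mild stressors that included restraint, forced swimming, a wet or tilted cage and foot shock, and brains were taken on the day after the last stressor. RNA of the PFC was pooled within each group, from 7 mice according to the design text. The methods count 10 mice per group over the arrays and quantitative PCR, and mention no pool. Each pool was hybridized to 1 one-color Agilent array. The stressors and the single housing cannot be told apart in this design.

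With 1 array per group there were no biological replicates, so no test between the groups was possible and every ratio below is a description of these 2 pools. Both arrays had a similar share of spots well above background (65.2% for the control pool and 65.9% for the CMS pool), and no spot was saturated. Signals are given on a common scale on which the mean of either array is 2500. Only errors within an array can be attached to a ratio. Spots that repeat 1 probe scattered in log2 ratio with an SD of 0.14 over 335 probes, and the scanner software's own error, carried over to the log2 ratio, was 0.20 to 0.24 for the 14 probes. Neither covers differences between mice.

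Myelin is a membrane sheath that oligodendrocytes wrap around axons. Its layers are held together by structural proteins such as Mbp, and other proteins sit at the inner layer facing the axon, at the outer surface or in the junctions between the layers. In the cortex, myelin is sparse in the upper layers and dense in the deep layers and the white matter beneath them. In RNA from whole tissue, fewer oligodendrocytes and less RNA per oligodendrocyte cannot be told apart.

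The sequences just upstream of 4 of the genes are shown so that genes with the lowest ratios and genes with ratios above 0 can be set side by side. No window of Mbp, which had the highest ratio, was used here. They are the 250 bases before the RefSeq start of Mobp and Cldn11, which had the lowest ratios, and of Opalin and Ermn, which were slightly higher in the CMS group. They come from RefSeq in GRCm38.p6 and are written 5′ to 3′ on the gene's strand. Capitals mark ACAAAG or ACAATG, on either strand, the core letters bound by Sox transcription factors, of which Sox10 is the one known to switch on myelin genes.
Mobp, chr9:120149492-120149741, plus strand: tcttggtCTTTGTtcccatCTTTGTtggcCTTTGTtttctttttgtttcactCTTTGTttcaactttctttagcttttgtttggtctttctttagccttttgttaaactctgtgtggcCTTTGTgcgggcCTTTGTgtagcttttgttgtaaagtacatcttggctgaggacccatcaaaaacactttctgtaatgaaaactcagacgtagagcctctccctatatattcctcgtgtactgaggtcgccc
Cldn11, chr3:31149670-31149919, plus strand: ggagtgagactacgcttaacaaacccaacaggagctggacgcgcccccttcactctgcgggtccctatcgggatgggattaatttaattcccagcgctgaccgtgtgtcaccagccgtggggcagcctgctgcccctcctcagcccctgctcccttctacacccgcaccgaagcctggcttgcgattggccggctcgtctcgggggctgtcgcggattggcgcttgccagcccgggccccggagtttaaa
Opalin, chr19:41077114-41077363, minus strand: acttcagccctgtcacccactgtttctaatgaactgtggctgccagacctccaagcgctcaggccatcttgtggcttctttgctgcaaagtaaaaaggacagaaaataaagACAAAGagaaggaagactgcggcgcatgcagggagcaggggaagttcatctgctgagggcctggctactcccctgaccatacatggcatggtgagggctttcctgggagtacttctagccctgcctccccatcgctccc
Ermn, chr2:58052865-58053114, minus strand: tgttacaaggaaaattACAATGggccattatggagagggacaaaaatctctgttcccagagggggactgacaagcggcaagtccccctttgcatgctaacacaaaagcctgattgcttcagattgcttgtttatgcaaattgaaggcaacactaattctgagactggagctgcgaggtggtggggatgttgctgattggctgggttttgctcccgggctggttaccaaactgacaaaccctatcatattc

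The Mobp window held 6 matches to ACAAAG, all on the opposite strand and between 243 and 120 bases before the start. Opalin held 1 match to it at 139 bases and Ermn 1 match to ACAATG at 234 bases, whereas Cldn11 held neither. Over 10 windows of 8 of the genes, ACAAAG was found in 5 windows of 4 genes (Mobp, Cnp, Mag and Opalin), ACAATG in 1, and the TATA box letters TATAAA in none. Of 32851 windows of the same length in the table, 16.5% held ACAAAG, 10.7% ACAATG and 12.4% TATAAA on either strand, and the Mobp window was the only one with as many as 6 matches to ACAAAG. No matches overlapped within a window. Both Mag matches were the same site, since the 2 Mag windows that hold it overlap. A match is a run of letters and not a binding site.

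Among the genes for proteins of the compact membrane, Mobp (myelin-associated oligodendrocyte basic protein) was lower in the CMS group and Mbp (myelin basic protein, which joins the inner faces of the membrane) was not. The brightest probe of Mobp (NM_008614) read 4468 in the control pool and 3535 in the CMS pool, for a log2 ratio of -0.34, or 0.791 of the control signal. This was 1.66 times the scanner error of the ratio. Mobp was the only one of the 9 past 1.2-fold. The other probes of Mobp, designed on NM_001039365, pointed the same way by less, with signals of 689 and 631 and a log2 ratio of -0.13 for the first, and of 77.8 and 70.2 and a log2 ratio of -0.15 for the second. The range over all 3 Mobp probes was 0.21, which 28.7% of the 4044 genes with several bright probes reached or passed.

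For Mbp, the probe designed on NM_001025245 gave 4858 in the control pool and 5233 in the CMS pool, for a log2 ratio of 0.11. The probes designed on NM_010777 gave 1445 and 1574 in one case and 94.8 and 104 in the other. Their log2 ratios were 0.12 and 0.13. All 3 Mbp probes were thus slightly higher in the CMS group and lay within 0.02 of one another, although each ratio was smaller than its scanner error.

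Genes for proteins of the inner and outer surface and of the junctions had lower signals in the CMS pool. Mag (myelin-associated glycoprotein), which faces the axon at the inner layer, had signals of 4366 in control and 3836 after CMS, for a log2 ratio of -0.19. Mog (myelin oligodendrocyte glycoprotein), which lies on the outer surface, went from 847 to 766, with a log2 ratio of -0.15. Cldn11 (claudin-11), which forms the tight junctions between myelin layers, had 4575 in control and 3902 after CMS, with a log2 ratio of -0.23. For Cldn11 the difference was 1.13 times the scanner error, whereas for Mag and Mog it was 0.915 and 0.715 times that error.

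The remaining genes encode an enzyme, a membrane transport protein and proteins of the myelinating cell itself. Cnp, the phosphodiesterase of the cytoplasmic myelin channels, had signals of 4237 in control and 3938 after CMS, with a log2 ratio of -0.11. Mal, a small membrane protein of lipid-rich transport vesicles, had 8125 and 7602, a log2 ratio of -0.10. The differences were 0.517 and 0.470 times the scanner error.

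Opalin, a glycoprotein of the oligodendrocyte membrane, had signals of 279 in control and 290 after CMS, with a log2 ratio of 0.05. Ermn (ermin), a cytoskeletal protein of late myelinating cells, was read by 2 probes designed on NM_029972. The brighter gave 66940 and 69221 and a log2 ratio of 0.05, and the dimmer 628 and 622 and a log2 ratio of -0.01. The 2 Ermn probes differed in sign, and all 3 of these values were within 0.256 times their scanner error.

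**Figure D1:**
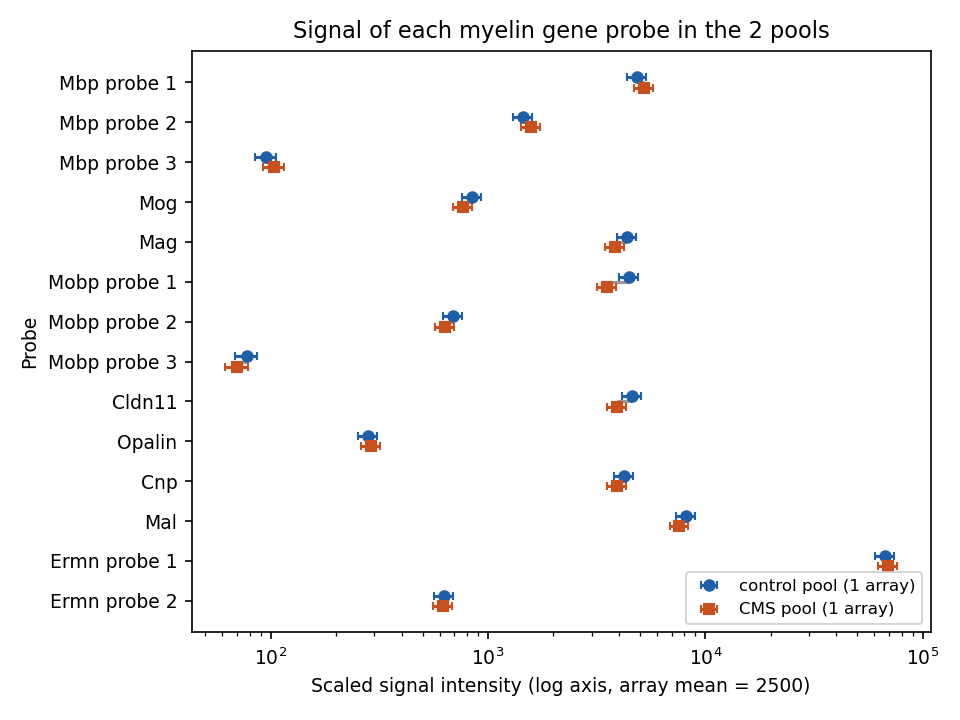
Scaled signal intensity (log axis, array mean 2500) of the 14 probes of the 9 myelin genes in the control pool (blue circles) and the CMS pool (orange squares), 1 array each, with bars for the scanner software's error of each spot. The pools lay close together for every probe, and the widest gap was that of Mobp probe 1, at 4468 and 3535; signals of different probes are not comparable with each other.

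Set in order, the log2 ratios of the brightest probes ran from Mobp through Cldn11, Mag, Mog, Cnp, Mal, Ermn and Opalin to Mbp. No gap between neighbours in this order exceeded 0.14, and the whole range was 0.44, against a scanner error of 0.29 for a difference between 2 ratios. Neighbours therefore did not differ beyond the error within the arrays. Of the 9 ratios, 7 were smaller than their scanner error and 2, those of Mobp and Cldn11, were larger. Against the SD between spots of the same probe, 4 of the 9 were as large or larger (Mobp, Cldn11, Mag and Mog), and 38.4% of all 27119 gene names with a ratio were.

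**Figure D2:**
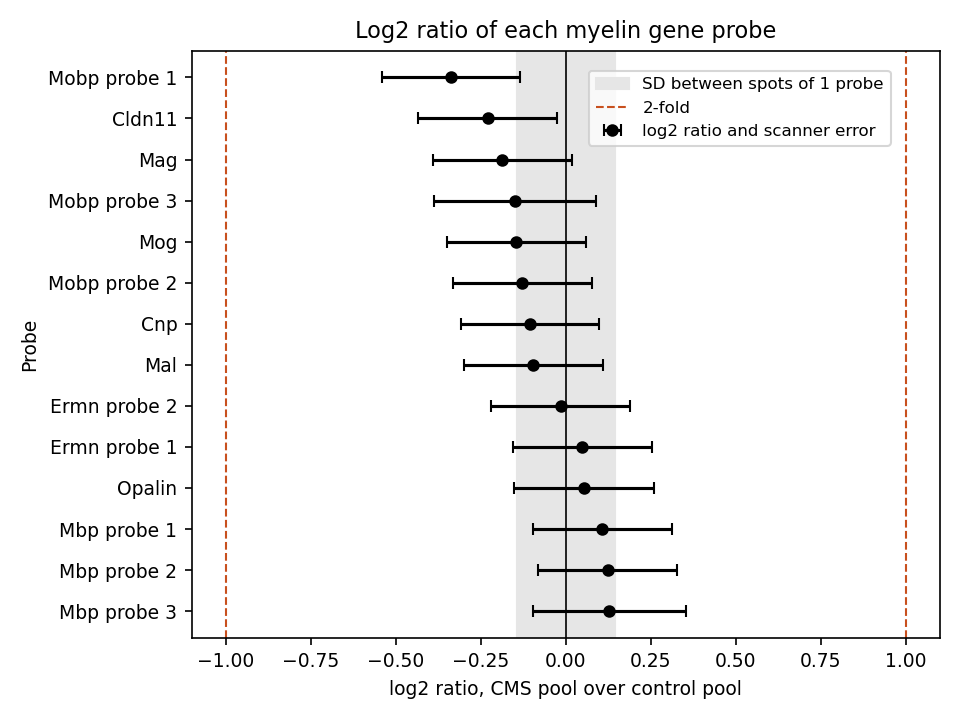
Log2 ratio of the CMS pool over the control pool for each of the 14 probes, in order from the lowest, with bars for the scanner error (0.20 to 0.24), a grey band for the SD between spots of 1 probe (0.14) and dashed lines at 2-fold. Only the bars of Mobp probe 1 and Cldn11 stop short of 0, and all probes lie far inside the 2-fold lines.

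The count of members past 2-fold was 0 of 9, where 2.58% of all gene names with a ratio passed it (1.99% higher and 0.590% lower). Past 1.2-fold it was 1 of 9, which was lower, where 19.5% of all gene names differed by as much in either direction. The share below 0 was 6 of 9, beside 58.8% of all gene names. All 9 genes were well above background in both pools, and among the 25433 gene names of which this was true, 1.33% passed 2-fold, 15.3% passed 1.2-fold and 59.9% were below 0. The median log2 ratio of the 9 genes was -0.11, with quartiles of -0.19 and 0.05, and that of all gene names was -0.03, with quartiles of -0.13 and 0.07. Mobp stood lowest among the members, with 6.75% of all gene names below it. These shares do not set the 9 genes apart from the other genes on the arrays.

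Spots around the probes and probes of like signal had small ratios, but not small beside those of Cnp, Mal and Opalin. The median log2 ratio of the spots around each of the 14 probes (10 rows and 10 columns each way, 181 to 282 spots) was between -0.08 and 0.01, and that of probes of like signal was between -0.05 and 0.01. The lowest surrounding medians were those of Opalin, at -0.08, and Mag, at -0.07. With the surrounding median taken off, the median of the 9 genes was -0.04 and Mobp remained the lowest. Cnp then moved from -0.11 to -0.04, Mal from -0.10 to -0.04 and Opalin from 0.05 to 0.14.

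Other genes of mature oligodendrocytes gave a similar picture. Of 32 listed genes, 31 had a ratio, and their median was -0.10. None passed 2-fold, and 27 of the 31 lay within 1.2-fold. Below 0 there were 22 of 31. Of the genes past 1.2-fold, Lpar1, a receptor for lysophosphatidic acid, went from 52.7 to 33.9 (log2 ratio -0.64), and Klk6, a secreted protease, from 66.9 to 45.6 (-0.55). Both were dim, with scanner errors of 0.32 and 0.27.

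The other genes past 1.2-fold in that list were higher in the CMS group. Trf (transferrin), the iron carrier that oligodendrocytes and liver both make, went from 14224 to 23027 on its brightest probe, a log2 ratio of 0.69, and the second probe gave 0.79. Gjb1 (connexin 32), a gap junction protein of oligodendrocytes and of hepatocytes, went from 1831 to 2232, a log2 ratio of 0.29. Beside these, 11 of 12 hepatocyte markers passed 2-fold, all of them higher after CMS. Their summed signal was 9761 in control and 86378 after CMS, and none was below background in either pool. The part of liver transcripts in the ratios of Trf and Gjb1 was not tested. None of the 9 myelin genes is on the hepatocyte list.

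Genes listed for the synthesis of myelin lipids lay closer to the median of all genes. The sheath is rich in galactolipids, very long fatty acids and cholesterol. The list also held Smpd1, whose enzyme breaks sphingomyelin down (log2 ratio -0.01). All 13 had a ratio, their median was -0.03, and all 13 were within 1.2-fold, with 9 of them below 0. The lowest were Elovl7, an elongase of fatty acids, from 827 to 719 (log2 ratio -0.20), and Ugt8a, which makes the galactolipids of myelin, from 300.0 to 262 (-0.20). The highest were Cers2, a ceramide synthase, from 578 to 623 (0.11), and Fdft1, squalene synthase, from 2763 to 2929 (0.08). The second, dimmer probe of Fdft1 gave 0.45, with a scanner error of 0.36.

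Of 11 transcription factors of the lineage, 10 were within 1.2-fold and their median was 0.02. The exception was Myrf, the factor that drives myelin gene expression in maturing oligodendrocytes. Its probe was too dim in the control pool to stand well above background, at 11.4, and reached 29.6 in the CMS pool. Set against the dimmest control signal that did stand above background, 17.8, it was 1.66-fold higher, a log2 ratio of 0.73. Against its own control signal the log2 ratio was 1.38, with a scanner error of 0.56. With another background correction and quantile normalization the log2 ratio was 0.29. Olig2 and Sox10, which are needed for the lineage and for myelin genes, had log2 ratios of 0.03 and 0.16 and were named after their values were seen. Of the 11 factors, 5 were below 0 and 6 above it, and the lowest was Olig1, from 3676 to 3258 (-0.17). Only 9 of the 11 were well above background in both pools. Besides Myrf, St18 was not, with signals of 18.8 in control and 17.8 after CMS (-0.08).

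Genes of oligodendrocyte precursors and newly formed oligodendrocytes were evenly split, with 8 of 16 below 0 and a median of -0.02. Of these, 11 were within 1.2-fold. Lower in the CMS group were Tmem163, a zinc transporter, from 184 to 123 (log2 ratio -0.58), Neu4, a sialidase, from 41.4 to 32.0 (-0.37), and Ptprz1, a receptor phosphatase that astrocytes also carry, from 5336 to 4266 (-0.32). The second, dimmer probe of Tmem163 pointed the other way, at 0.26, and that of Ptprz1 the same way, at -0.21. Higher were Enpp6, a choline phosphodiesterase of newly formed oligodendrocytes, from 30.7 to 38.6 (0.33), and C1ql1, a secreted protein related to complement C1q, from 66.9 to 80.6 (0.27). The ratio of Enpp6 was within its scanner error of 0.35. With another background correction and quantile normalization, Neu4, Ptprz1, Enpp6 and C1ql1 were within 1.2-fold.

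Markers of the other cells in the tissue differed little between the pools. The median log2 ratio was -0.03 over 14 neuron markers, -0.04 over 10 astrocyte markers, 0.06 over 10 microglia markers and -0.06 over 10 endothelial markers, and no gene of these lists passed 2-fold. All 14 neuron markers were well above background in both pools. Astrocyte Gfap was the lowest of them, at -0.30 on its brightest probe, and its other probes gave -0.015 and -0.33. Schwann cell markers, which would report nerve tissue, had a median of -0.03. In that list Egr2, also known as an activity-induced gene in neurons, was lower, at -1.65, and Dhh, a hedgehog ligand, was higher, at 2.16. The choroid plexus list had a median of 0.10, with Ttr, which liver also makes, at 3.38.

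**Figure D3:**
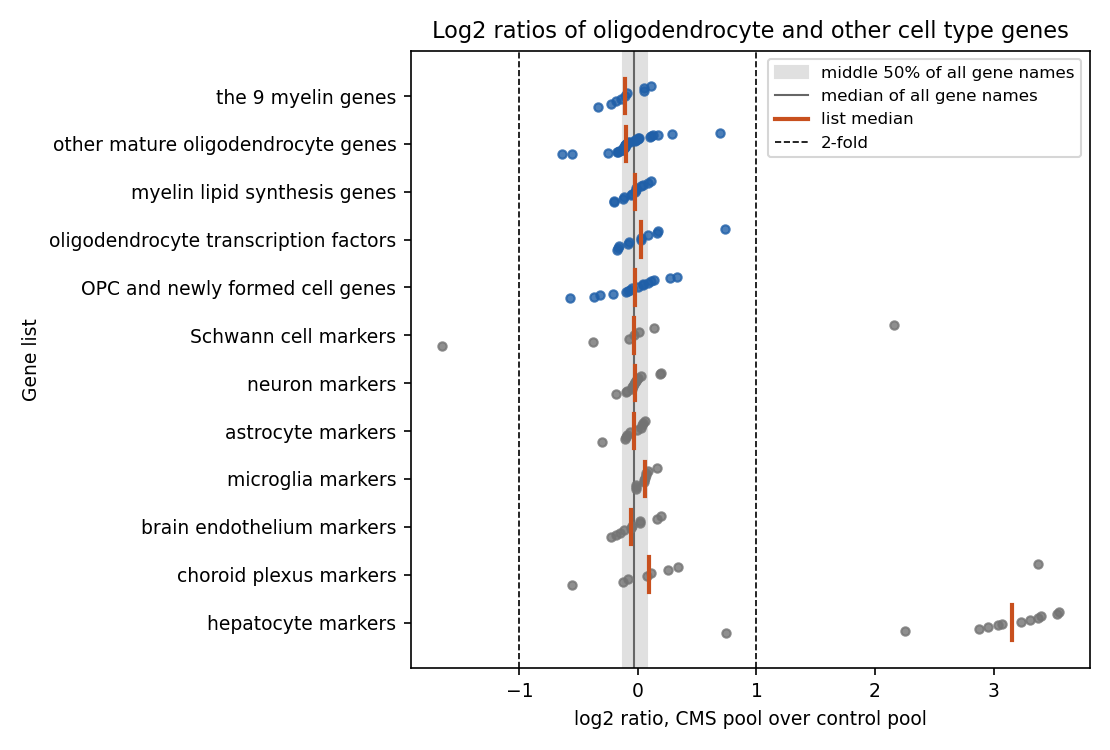
Log2 ratios of the CMS pool over the control pool for single genes (points) of the 9 myelin genes, the other oligodendrocyte lists (blue) and the marker lists of other cells (grey), with an orange bar at each list median, a grey band for the middle 50% of all gene names (-0.13 to 0.07) and dashed lines at 2-fold. The oligodendrocyte lists lie inside the 2-fold lines and centre between -0.11 and 0.02, while the hepatocyte markers centre at 3.15.

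The directions of Mbp, Opalin and Ermn depended on the arrays being scaled, whereas those of the other 6 genes did not. Before scaling, the array of the CMS group was dimmer, and all 9 genes were below 0, with a median of -0.28 beside -0.20 for all gene names. In the other processing tried, 6 genes stayed below 0 and Mbp, Opalin and Ermn above it, and no gene reached 2-fold. The lowest value for any of them was -0.51, for Mobp without scaling. With the mean of all its probes in place of the brightest, Mobp was at -0.21, and no gene was past 1.2-fold.

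**Figure D4:**
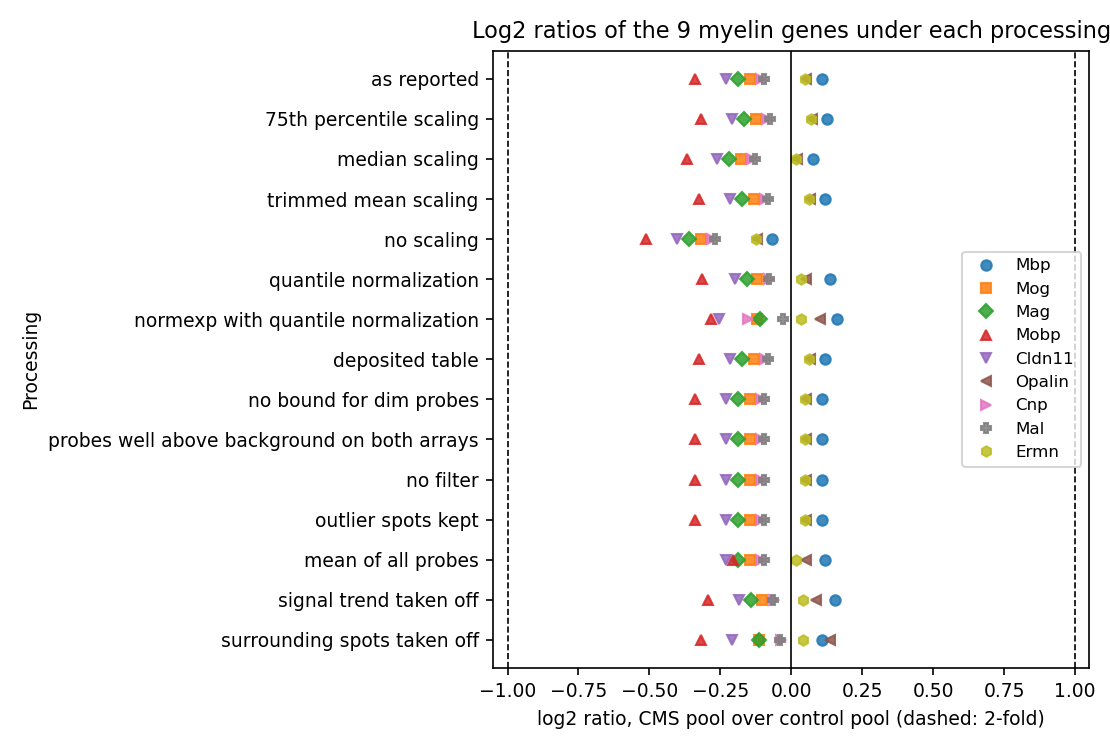
Log2 ratios of the CMS pool over the control pool for the 9 myelin genes as reported (top row) and under each of 14 other ways of processing the same 2 arrays, with dashed lines at 2-fold. Mobp, Cldn11, Mag, Mog, Cnp and Mal stay below 0 in every row, and Mbp, Opalin and Ermn move below 0 only without scaling.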

How the data were processed

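Pooled PFC RNA of the C group and of the CMS group was measured on 1 one-color Agilent SurePrint G3 mouse array each, and both arrays lay on 1 slide. The authors deposited scanner files in which Agilent Feature Extraction 10.10.1.1 gives each spot a background-subtracted, spatially detrended intensity on a linear scale, not scaled between arrays. They also deposited a table of scaled intensities. That table equals the scanner intensities times 1.80 for the C group and 2.05 for the CMS group, with medians of 149 and 153.

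Here, control spots and outlier spots (130 and 133) were left out, spots of 1 probe were averaged, and intensities were scaled so that either array averaged 2500, the value named in the methods. Probes with at least 0.5 of their spots well above background were taken as bright. Where a probe was bright on 1 array alone, its dim side was set to the dimmest bright signal of that array (17.8 and 17.6) unless its own was larger. Probes dim on both arrays had no ratio. Accessions were named through RefSeq genes of GRCm38.p6, which gave 30740 of 59305 spots a symbol, and a gene took its probe of highest mean log2 signal. Log2 ratios are CMS over control, and a gene counted as changed above 2 or below 0.5. The scanner error of a ratio was carried over from the deposited error of each spot.

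Members, gene lists and the rule for named genes (all members, and in each other oligodendrocyte list the genes past 1.2-fold, or else the 2 highest and 2 lowest) were chosen with earlier results of these data known. Exceptions are stated in the text. No likeness of pattern between genes was computed, since 2 arrays give 1 ratio per gene. The 12 alternatives concerned scaling, background correction (normexp with an offset of 50 on median spot intensities), the deposited table, dim probes, outlier spots and several probes per gene. A further 2, for signal trend and position, were chosen after seeing the data. The gene calling was tested on simulated arrays with planted changes well past 2-fold, which does not bear on smaller differences. Software was R 4.3.3, limma 3.58.1, Python 3.11.15, pandas 2.3.3 and numpy 2.4.6.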

Additional observations from a re-analysis of the deposited data

How the results depend on the processing

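With a single array in either group, leaving out a replicate or blocking on the slide could not be done. No paired analysis was possible because there is a single pool per group. The number of arrays limits the precision, and probes near background are the least certain. The count of members past 2-fold was 0 in all 14 alternatives, and the count below 0 was 6 in 13 of them and 9 with no scaling.

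Without scaling, all gene names had a median of -0.20 in place of -0.03, by construction. Then the median of the 9 genes was -0.28, 6 of them passed 1.2-fold, and the list medians were mature oligodendrocyte -0.28, lipid synthesis -0.20, transcription factors -0.15, precursors -0.20, Schwann cell -0.20, neuron -0.20, astrocyte -0.21, microglia -0.12, endothelium -0.23, choroid plexus -0.077 and hepatocyte 2.98. Under normexp with quantile normalization the other mature oligodendrocyte genes had a median of -0.027 and the hepatocyte markers 2.85. With the mean of all probes, 0 of the 9 genes passed 1.2-fold. With the surrounding spots taken off, chosen after seeing the data, the median of the 9 genes was -0.040. The causes of these moves other than the scaling were not tested. Among single genes, normexp brought Lpar1 and Klk6 to -0.28 and Myrf to 0.29. It also brought 4 of the 5 precursor genes named as past 1.2-fold back within it (Neu4 at -0.15, Ptprz1 at -0.17, Enpp6 at 0.073 and C1ql1 at 0.083), and the mean of all probes brought Tmem163 to -0.16 and Fdft1 to 0.27. The second probes, at 0.26 for Tmem163 and 0.45 for Fdft1, enter these means by construction. Of the single genes named for normexp, only Ptprz1 had high signals, at 5336 in the control pool and 4266 in the CMS pool. Without the bound, Myrf was at 1.38.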
